A study of Danio rerio with 9 samples.

Results

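The small heat shock genes hspb1, hspb6, hspb7 and hspb8 were followed through zebrafish development, with hspb1 as the lead gene. The 4 genes were listed by name, and hspb1 was chosen by its measured values, which were highest at the 50%-epiboly stage, so its peak is described here and not tested. Symbols were matched to Ensembl gene IDs without regard to case, and 3 of the 4 genes had a row among the 29291 genes of the table. The gene hspb7, a small heat shock protein known from the heart, had no matching row and was not analysed here. All 3 measured genes reached 1 RPKM (reads per kilobase of gene, scaled to the mapped reads of the library) in at least 1 library, as did 19868 genes in all.

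The libraries were made from poly(A) RNA of whole AB-strain zebrafish, about 2000 individuals per stage, with no treatment before killing named in the labels. Ages in hours post-fertilization (hpf) were 2 for the 64-cell stage, 3.6 to 4 for oblong-sphere and 5.25 for 50%-epiboly, the start of gastrulation. The 15-somite embryos were 16.5 to 17.5 hpf old. Prim-25 was taken at 36 hpf and Long-pec at 48 hpf, followed by Pec-fin at 60 and Protruding-mouth at 72. The oldest sample was a larva stage of 1 week. There was 1 library per stage, so no difference between stages could be tested and the values describe these libraries only. In whole animals, fewer cells of a type and less RNA per cell cannot be told apart.

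Small heat shock proteins are chaperones that work without ATP. They share an alpha-crystallin domain, assemble into oligomers and hold unfolding proteins until other chaperones, such as Hsp70, can refold them. Some members are induced by heat through the transcription factor Hsf1, while others are made constitutively in muscle, heart or lens. Hspb1, called Hsp27 in mammals, also binds and protects actin filaments. Hspb8 works in mammals with the co-chaperone Bag3 to clear damaged proteins, and Hspb6, called Hsp20, is abundant in mammalian muscle.

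Read numbers behind the values were recovered from the table for 8 of the 9 libraries, which held between 123311411 (64-cell) and 205507592 (Protruding-mouth) mapped reads. Pec-fin values were not whole reads of a single total and carry no interval. Intervals are exact 95% Poisson intervals on the recovered reads and cover counting error only. Marker genes were read against the stage labels as summed RPKM of fixed lists. For 12 maternal genes the sum was 2366 RPKM at 64-cell and 107 at 50%-epiboly. For 17 mesendoderm genes it was 42.1 RPKM at oblong-sphere, 511 at 50%-epiboly and 128 at 15-somite. For 11 skeletal muscle genes it was 37.6 RPKM at 50%-epiboly, 790 at 15-somite and 4797 at Prim-25.

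hspb1 was present at every stage and was highest at 50%-epiboly by a wide margin. Its level was 4.05 RPKM at 64-cell, 29.3 at oblong-sphere, 5998 at 50%-epiboly, 412 at 15-somite, 102 at Prim-25, 101 at Long-pec, 50.4 at Pec-fin, 28.0 at Protruding-mouth and 17.7 at 1 week. The gene thus had its lowest value at 64-cell, a single sharp high at 50%-epiboly and lower values at each stage after that. At a recovered length of 884 bases, the 50%-epiboly value stood for 1019520 reads, 0.530% of that library's mapped reads, against 441 reads at 64-cell and 4914 at oblong-sphere. The 95% intervals were 3.68 to 4.44 RPKM at 64-cell, 28.5 to 30.2 at oblong-sphere and 5986 to 6010 at 50%-epiboly. Low counts do not limit these values, which are levels in poly(A) RNA and not in all RNA.

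**Figure D1:**
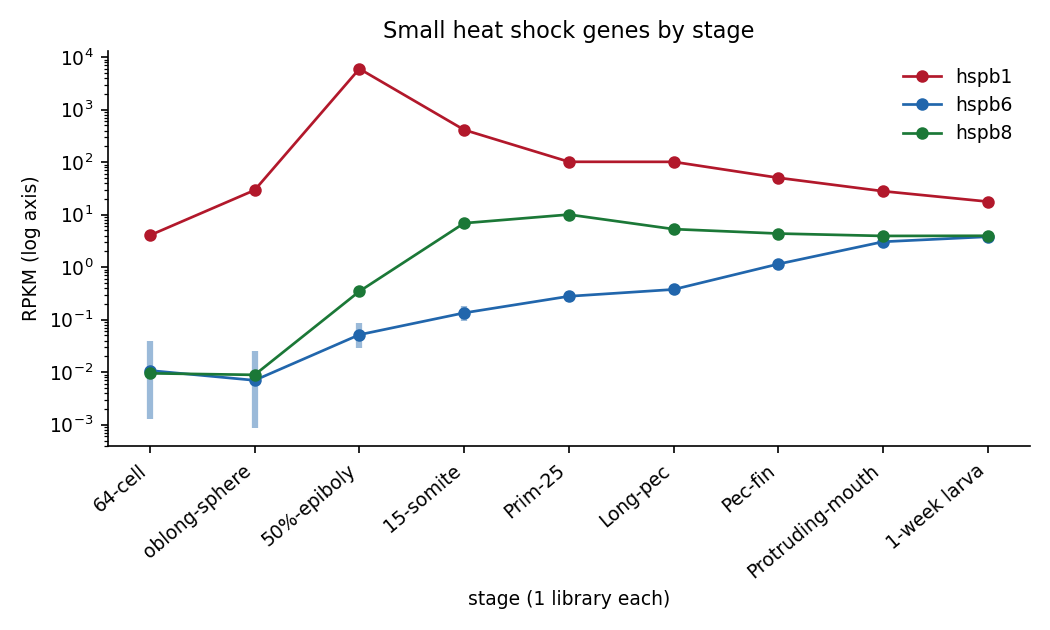
RPKM on a log axis of hspb1, hspb6 and hspb8 at the 9 stages, 1 library each, with vertical bars for exact 95% Poisson intervals where reads were recovered. hspb1 is highest at 50%-epiboly (5998 RPKM), hspb8 at Prim-25 (10.0 RPKM) and hspb6 at 1 week (3.80 RPKM).

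Ordered by level, the hspb1 stages ran from 50%-epiboly through 15-somite, Prim-25, Long-pec, Pec-fin, oblong-sphere, Protruding-mouth and 1 week down to 64-cell. Prim-25 (100.0 to 103 RPKM) and Long-pec (99.8 to 103 RPKM) had overlapping intervals, and so did oblong-sphere (28.5 to 30.2 RPKM) and Protruding-mouth (27.2 to 28.8 RPKM). The level at 1 week was 0.296% of the peak, and the level at 64-cell was 0.0674% of it.

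Among all genes of a library, hspb1 ranked 8796 at 64-cell, 2794 at oblong-sphere, 2 at 50%-epiboly, 129 at 15-somite, 467 at Prim-25 and 2632 at 1 week. In the 50%-epiboly library it stood between mitochondrially encoded subunits of cytochrome c oxidase, MT-CO1 at 6332 RPKM and MT-CO2 at 5937 RPKM. It was thus the most abundant mRNA not encoded in the mitochondrion in that library. It held 1.70% of the summed RPKM there, 0.00964% at oblong-sphere and 0.105% at 15-somite. Of the 19868 genes, 1800 (9.06%) had their highest value at 50%-epiboly.

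Differences between neighbouring stages were taken in log2(RPKM + 1), later minus earlier, and a call needs a difference of 2 or more in size, which is 4-fold on that scale and understates changes of low genes. The contrasts around 50%-epiboly were used to choose hspb1, so its differences there are a description, and nothing is read from its calls. From 64-cell to oblong-sphere hspb1 was higher by 2.59, where 0.372% of all genes were called higher and 0.685% lower. From oblong-sphere to 50%-epiboly it was higher by 7.63, a ratio of 205 in RPKM, where 6.87% of genes were called higher and 14.7% lower. That difference ranked 17 from the top among 19868 genes. From 50%-epiboly to 15-somite it was lower, at -3.86, a ratio of 14.6 in RPKM, where 4.37% of genes were called higher and 1.12% lower. That difference ranked 26 from the bottom.

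**Figure D2:**
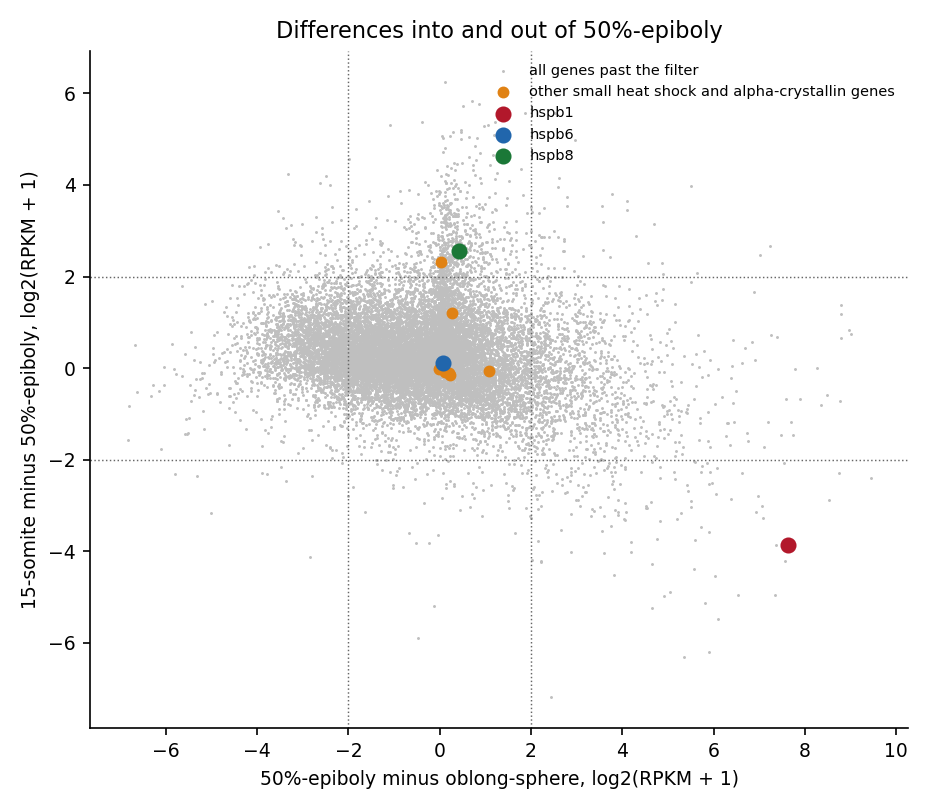
Each point is 1 gene past 1 RPKM in at least 1 library, with its difference in log2(RPKM + 1) into 50%-epiboly on the horizontal axis and out of it on the vertical axis, and dotted lines at 4-fold. hspb1 lies at 7.63 and -3.86, while hspb6, hspb8 and the other small heat shock and alpha-crystallin genes lie between -0.01 and 1.08 on the horizontal axis.

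The fall of hspb1 continued after 15-somite. From 15-somite to Prim-25 the difference was -2.01, just past 4-fold, where 1.73% of genes were called higher and 0.433% lower. With median-of-ratios scaling it was -1.94 and with scaling without the 100 most abundant genes it was -1.89, so the call is lost under both. Between Prim-25 and Long-pec the gene hardly differed (0.00 on this scale), in a step where 0.00503% of genes were called higher and 0.00503% lower. The later differences were -0.99 to Pec-fin, -0.83 to Protruding-mouth and -0.63 to 1 week. None of these was called, where the shares of genes called higher and lower were 0.0705% and 0.0805% at the first, 0.74% and 0.136% at the second and 5.23% and 0.443% at the third.

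hspb8 had a later and lower course than hspb1. It was at 0.00952 RPKM at 64-cell, 0.00890 at oblong-sphere, 0.347 at 50%-epiboly, 6.89 at 15-somite, 10.0 at Prim-25, 5.30 at Long-pec, 4.37 at Pec-fin, 3.93 at Protruding-mouth and 3.96 at 1 week. The gene was close to 0 before gastrulation, highest at Prim-25 and, in the deposited values, level near 4 RPKM from Pec-fin on. That last course depends on the scaling. From Protruding-mouth to 1 week the difference was 0.01, but -0.31 with median-of-ratios scaling. It was -0.43 without the 100 most abundant genes and -0.41 without mitochondrially encoded genes. Its values were not whole reads over a single length, so no interval is given. From 50%-epiboly to 15-somite the difference was 2.55, which passed 4-fold, and in RPKM the ratio was 19.9. At that step 4.37% of all genes were called higher and 1.12% lower, and hspb8 ranked 461 from the top. It was the only step at which hspb8 was called. From oblong-sphere to 50%-epiboly its difference was 0.42 with a pseudocount of 1 and 2.04 with a pseudocount of 0.1, so whether it counts as a 4-fold difference depends on that choice. From Prim-25 to Long-pec it was lower by 1.89 times in RPKM, a difference of -0.81.

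The first high values of hspb8 came at the stage at which the summed level of 11 skeletal muscle genes went from 37.6 to 790 RPKM, and that of 10 heart muscle genes from 1.09 to 15.1 RPKM. The muscle sum went on to 4797 RPKM at Prim-25, 3958 at Long-pec and 11959 at 1 week, while hspb8 was 2.53 times lower at 1 week than at Prim-25. The part of muscle content in the hspb8 level was not tested. Bag3, the partner of Hspb8 in mammals, was itself measured as bag3. It was at 2.45 RPKM at oblong-sphere, 3.29 at 50%-epiboly, 10.8 at 15-somite, 6.96 at Prim-25 and 5.03 at Long-pec. Both genes were higher at 15-somite and Prim-25 than at the earlier stages, but bag3 was present earlier, at 2.45 RPKM where hspb8 had 0.00890.

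hspb6 was the lowest of the 3 genes at most stages and the last to appear. Its level was 0.0108 RPKM at 64-cell, 0.00700 at oblong-sphere, 0.0518 at 50%-epiboly, 0.135 at 15-somite, 0.279 at Prim-25, 0.377 at Long-pec, 1.15 at Pec-fin, 3.05 at Protruding-mouth and 3.80 at 1 week. Apart from the first pair of stages, each value was higher than the one before. At a recovered length of 1507 bases these values were 2 reads at 64-cell, 2 at oblong-sphere, 15 at 50%-epiboly, 40 at 15-somite, 75 at Prim-25 and 108 at Long-pec. The later libraries held 944 reads (Protruding-mouth) and 1172 reads (1 week). The first pair lies under the floor of 3 reads, 0.0161 and 0.0105 RPKM, so no fold is given for it. The intervals of Prim-25 (0.220 to 0.350 RPKM) and Long-pec (0.309 to 0.455 RPKM) overlapped, and those of Protruding-mouth (2.86 to 3.25 RPKM) and 1 week (3.59 to 4.03 RPKM) did not. They cover counting error only, and the direction from Protruding-mouth to 1 week depends on the scaling.

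No step of hspb6 passed 4-fold in log2(RPKM + 1). Its highest value on that scale was 2.26, at 1 week, so a call could hardly be made with a pseudocount of 1. The largest differences were 0.64 from Long-pec to Pec-fin and 0.91 from Pec-fin to Protruding-mouth, ratios of 3.05 and 2.66 in RPKM. Into 50%-epiboly the ratio in RPKM was larger, 7.39, but it went from 2 reads to 15 and is uncertain. From Protruding-mouth to 1 week the difference was 0.25 and turned negative under all 3 other scalings, to -0.08 with median-of-ratios scaling and -0.18 without the 100 most abundant genes. By 1 week hspb6 and hspb8 had reached nearly the same level, 3.80 and 3.96 RPKM, against 17.7 RPKM for hspb1. Over the 9 stages Pearson's r of log2(RPKM + 1) was 0.08 between hspb1 and hspb8, -0.34 between hspb1 and hspb6 and 0.39 between hspb6 and hspb8, as a description of 9 single libraries.

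The wider family was set beside hspb1. Since hspb1 was chosen by its 50%-epiboly value, its distance from its relatives at that stage is a description. Of 13 listed small heat shock and alpha-crystallin symbols, 9 had a row, all past 1 RPKM in some library, and hspb9l and a gene named CRYAB were added after the values were seen. At 50%-epiboly the next highest of these 11 genes was hspb11 at 3.41 RPKM, a ratio of 1761 to hspb1. Into 50%-epiboly hspb1 was the only one of the 9 genes called higher and 0 were called lower, where 6.87% and 14.7% of all genes were called. The 1 call is that of the gene chosen by these values, so nothing is read from the count. The median difference was 0.23 against -0.09 over all genes. At the step to 15-somite hspb8 was called higher and hspb1 lower, where 4.37% and 1.12% of all genes were called, with a median of -0.06 against 0.18 over all genes, and the added hspb9l (0.0273 to 4.09 RPKM) also passed 4-fold.

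**Figure D3:**
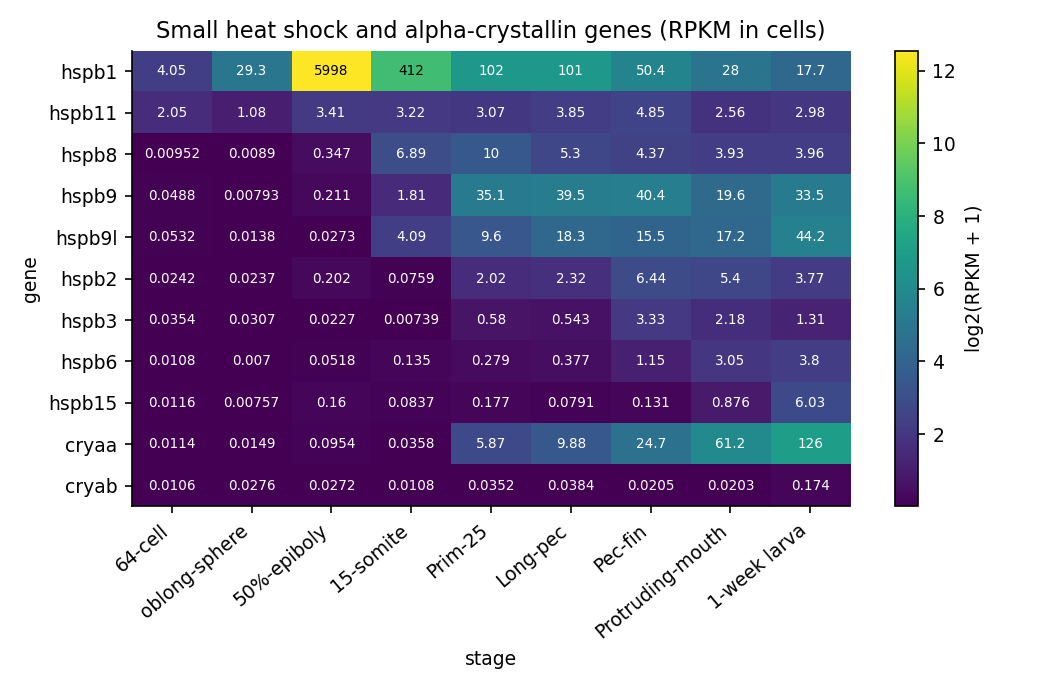
RPKM of 11 small heat shock and alpha-crystallin genes (rows) at the 9 stages (columns), with the value printed in each cell and the colour giving log2(RPKM + 1). The hspb1 row is highest at 50%-epiboly (5998 RPKM), while hspb9 and cryaa are below 2 RPKM up to 15-somite.

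The other relatives had later highs. hspb9 was at 0.211 RPKM at 50%-epiboly, 1.81 at 15-somite, 35.1 at Prim-25, 40.4 at Pec-fin and 33.5 at 1 week. cryaa, the alpha-A crystallin that is a structural protein of the lens, was at 0.0954 RPKM at 50%-epiboly, 5.87 at Prim-25, 24.7 at Pec-fin, 61.2 at Protruding-mouth and 126 at 1 week. The summed level of 11 other lens genes went from 8.92 RPKM at 50%-epiboly to 1045 at Prim-25 and 6925 at 1 week. hspb2 and hspb3, which pair with each other in mammalian muscle, were both highest at Pec-fin, at 6.44 and 3.33 RPKM. hspb15 reached 6.03 RPKM at 1 week and was under 1 RPKM at all earlier stages. hspb11 stayed between 1.08 and 4.85 RPKM at all 9 stages, and the gene named CRYAB did not pass 0.174 RPKM. Another gene ID with the symbol CRYAB had no row, so alpha-B crystallin is not fully covered here or in the family sum.

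The make-up of the summed family level changed over development, as hspb1 fell after 50%-epiboly while the sum of the other genes rose. hspb1 held 64.1% of the summed RPKM of the 11 genes at 64-cell, 96.0% at oblong-sphere, 99.9% at 50%-epiboly and 96.2% at 15-somite. It held 60.3% at Prim-25, 55.8% at Long-pec, 33.3% at Pec-fin, 19.4% at Protruding-mouth and 7.27% at 1 week. It was the highest of the 11 genes through Pec-fin, behind cryaa at Protruding-mouth and at rank 4 at 1 week. Without hspb1, the summed level was 1.22 RPKM at oblong-sphere, 4.55 at 50%-epiboly, 16.4 at 15-somite, 66.7 at Prim-25 and 226 at 1 week. hspb8 held at most 5.96% of the sum, at Prim-25, and hspb6 at most 2.12%, at Protruding-mouth.

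**Figure D4:**
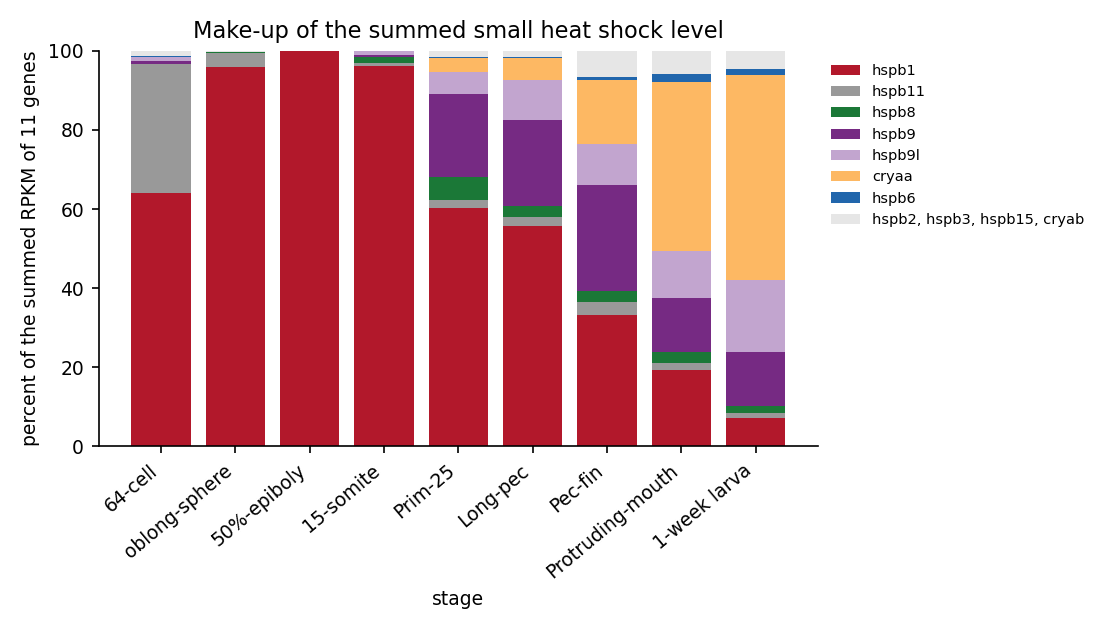
Percent of the summed RPKM of 11 small heat shock and alpha-crystallin genes held by each gene at each stage. The hspb1 share is 99.9% at 50%-epiboly and 7.27% at 1 week, where cryaa holds 51.8%.

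Other chaperones were read from lists of symbols, with the medians set beside that of all genes (-0.09 into 50%-epiboly and 0.18 out of it). Median-of-ratios scaling shifts every gene by 0.36 and -0.63 in log2 RPKM at these steps, so a median is read only against that of all genes. Into 50%-epiboly, 6.87% of all genes were called higher and 14.7% lower, so few calls in a list of this size are not a result about the list. Of 15 Hsp70-family genes 1 was called lower and 0 higher (median 0.18), namely hyou1, a chaperone of the endoplasmic reticulum (78.0 to 11.9 RPKM). Of 3 Hsp90 genes (median 0.71) and of 11 Hsp40 genes (median -0.02) 0 were called in either direction. Symbols added after the values were seen brought in hsp90aa1 (0.595 to 19.0 RPKM), called higher, and the Hsp40 gene dnaja3 (36.4 to 5.20 RPKM), called lower. Of 8 chaperonin genes 1 was called higher, hspe1, the mitochondrial co-chaperonin (2.52 to 36.1 RPKM), and the median was 0.89. Of 10 genes of Bag proteins and related partners 0 were called higher and 3 lower, namely bag4 (153 to 6.24 RPKM), bag5 (35.7 to 3.43 RPKM) and 1 of the 2 genes named bag6 (20.9 to 1.88 RPKM).

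The other genes best known for induction by heat were below hspb1 at 50%-epiboly, as was every gene but MT-CO1. They were picked for this paragraph after their values were seen. The inducible Hsp70 genes hsp70l, hsp70.1 and hsp70.3 were at 0.136, 0.0349 and 2.85 RPKM there, against 0.00229, 0.0553 and 0.265 RPKM at oblong-sphere. The inducible hsp90aa1.1 had 0.384 and then 1.27 RPKM, and the co-chaperone dnajb1b 64.8 and then 64.0 RPKM. The gene named hsp90aa1, among the symbols added after the values were seen, had 0.595 and then 19.0 RPKM and was called higher. hsf1, the heat shock transcription factor, had 14.5 and then 11.8 RPKM, and hsf2 42.1 and then 22.2 RPKM. The constitutive hspa8, by the higher of its 2 gene IDs, was at 614 and then 1186 RPKM. By the other ID it was at 0.101 and then 1.16 RPKM. Of 15 genes of oxidative and other stress responses 4 were called higher at this step and 1 lower (median 0.31), against 6.87% and 14.7% of all genes. The higher ones were sesn3 (0.133 to 111 RPKM), a sestrin, nqo1 (7.22 to 66.1 RPKM), a quinone reductase, txn (52.5 to 219 RPKM), thioredoxin, and hmox1 (0.0112 to 3.06 RPKM), heme oxygenase. The lower one was gclc, an enzyme of glutathione synthesis (45.9 to 8.57 RPKM). For hspb6 the floor of 3 reads at oblong-sphere was 0.0105 RPKM. The oblong-sphere values of hsp70l and hmox1 were below or near that level, so ratios to them are uncertain. The part of a stress response in the hspb1 level was not tested.

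Out of 50%-epiboly, hsp90aa1.1 had the largest difference of these lists, 1.27 to 128 RPKM, in the direction opposite to hspb1. This gene is known in zebrafish for folding myosin in skeletal muscle. The Bag-family gene bag2 (1.13 to 9.56 RPKM) and hmox1 (3.06 to 24.5 RPKM) were called higher as well, and sesn3 (111 to 21.9 RPKM) was called lower. Of the Hsp70, Hsp40, heat shock factor and chaperonin genes 0 were called at this step, where 4.37% of all genes were called higher and 1.12% lower, so few calls could be made in lists this short.

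Cell type lists were read beside hspb1 as summed levels. The first list held 15 epithelial genes, tp63 and epcam among them, and is not specific to a single layer. Its sum was 294 RPKM at oblong-sphere, 6088 at 50%-epiboly, 7761 at 15-somite and 7336 at Prim-25. Most of the oblong-sphere sum was epcam, at 253 RPKM, which was lower at 50%-epiboly, at 112 RPKM. The sum was below its 50%-epiboly value at Long-pec (5143 RPKM), Pec-fin (4414 RPKM) and Protruding-mouth (4273 RPKM). At 1 week it was above that value again, at 6921 RPKM. The keratin gene krt4 went from 1886 to 4266 RPKM between 50%-epiboly and 15-somite, and without it, a choice made after its values were seen, the sum was 4203 and then 3495 RPKM. Without krt4 the sum at 1 week was 4870 RPKM. At 15-somite 8 of the 15 genes had lower values than at 50%-epiboly, and the median difference was -0.01 against 0.18 over all genes. Of the 15 genes 12 were called higher into 50%-epiboly, against 6.87% of all genes, and 0 were called out of it, against 4.37% higher and 1.12% lower. The sum of the 17 mesendoderm genes was highest at 50%-epiboly, at 511 RPKM against 42.1 before and 128 after. Of the 16 past 1 RPKM, 12 were called higher into it (6.87% of all genes) and 0 lower (14.7% of all genes). Out of it 9 were called lower (1.12% of all genes) and 1 higher (4.37% of all genes). The higher one was wnt11 (0.249 to 27.1 RPKM). The list was not uniform, since ndr1 was highest at oblong-sphere, at 4.57 RPKM, and had 0.621 RPKM at 50%-epiboly. The part of either tissue in the hspb1 level was not tested.

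The genes with courses most like hspb1 were ranked by Pearson's r of log2(RPKM + 1) over the 9 stages, among 7363 genes with a unique symbol and at least 10 RPKM in 1 library. The first 5 were zbedx (r = 0.986), HS6ST2, an enzyme of heparan sulfate sulfation (0.983), si:dkey-160o24.3 (0.978), ERCC3, a DNA helicase of transcription and repair (0.975), and tbx16l, a T-box transcription factor (0.973). All 5 were highest at 50%-epiboly, with much lower levels than hspb1. Ranking by likeness to hspb1 favours a high at that stage, so the shared high is not a result about these genes. HS6ST2 had 10.1, 127 and 31.3 RPKM at oblong-sphere, 50%-epiboly and 15-somite, and tbx16l had 0.111, 38.8 and 10.5 RPKM. By Spearman's rho, 2 of these 5 genes, zbedx and tbx16l, were among the first 5.

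**Figure D5:**
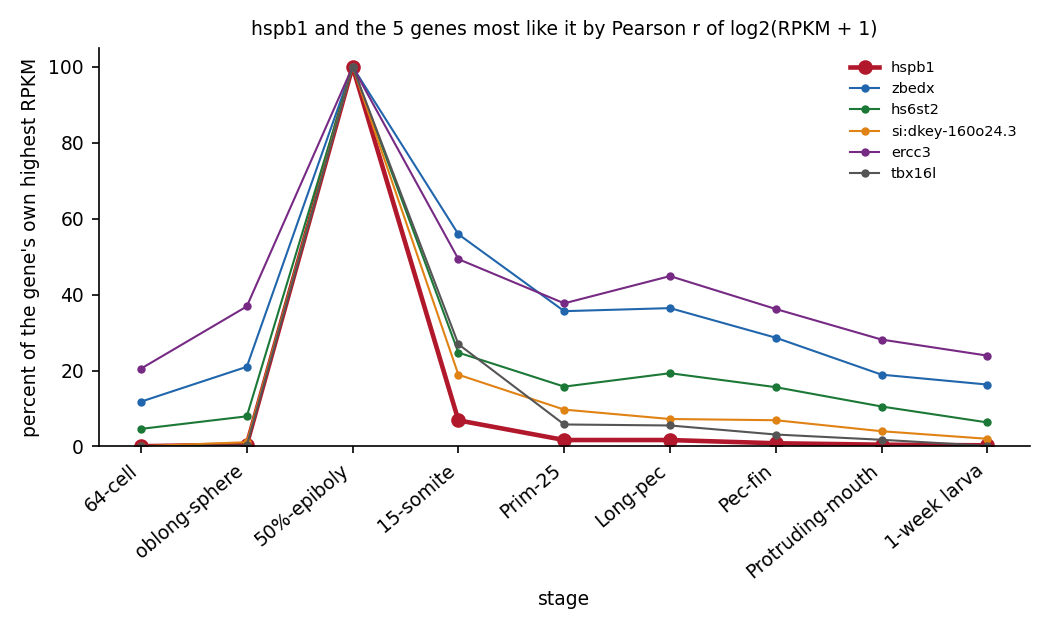
Level at each stage as a percent of the gene's own highest RPKM, for hspb1 and the 5 genes with the highest Pearson's r to it. All lines peak at 50%-epiboly, and hspb1 is lowest of them at 15-somite, at 6.87% of its peak.

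For hspb8 the first 5 genes were zgc:171775 (r = 0.987), EMP2, a membrane protein of epithelia (0.987), cmn, a matrix protein of the notochord sheath (0.982), MYB, a transcription factor of blood progenitors (0.982), and VKORC1, an enzyme of the vitamin K cycle (0.981). All 5 were below 2 RPKM at 50%-epiboly and lay between 6.07 RPKM (VKORC1) and 82.5 RPKM (EMP2) at 15-somite. EMP2, cmn and MYB were highest at 15-somite, while zgc:171775 and VKORC1 were highest at Prim-25, as hspb8 was. For hspb6 they were the lens crystallin genes crygm2d16 (0.993) and crygm2d15 (0.989), the extracellular matrix gene ASPN (0.990), si:dkey-183i3.5 (0.990) and syt5b, a synaptotagmin (0.989). All of these were at or below 0.303 RPKM (syt5b) up to 15-somite. Ranking by likeness to hspb8 or hspb6 favours such courses, so the shared courses are not a result about these genes. By Spearman's rho 0 of the 5 genes for hspb8 were among the first 5. For hspb6 it was 1 of the 5, si:dkey-183i3.5.

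The 50%-epiboly high can also be described as the excess of that stage over the higher of its neighbours in log2(RPKM + 1). hspb1 had an excess of 3.86, the size of its difference out of 50%-epiboly, and ranked 10 among 7364 genes. The choice of hspb1 used these values, so its excess and rank are a description and nothing is read from them. The 5 genes above all others were zgc:112994 (5.35), rbp7a, a retinoid-binding protein (4.96), SLC3A2, the heavy chain of amino acid transporters (4.95), pnp4a, a purine nucleoside phosphorylase (4.91), and pnhd, a secreted protein of the gastrula (4.89). Their 50%-epiboly levels were between 34.1 RPKM (pnp4a) and 274 RPKM (SLC3A2), so each had a higher excess than hspb1 at a far lower level. An excess of at least 4-fold was found in 90 of the 7364 genes.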

How the data were processed

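RPKM values were used as the authors deposited them, 1 per Ensembl gene and library; per the labels' protocols the libraries were SOLiD fragment libraries of poly(A) RNA, and per the submitters' processing notes the build was Zv9. For the aligner, the counting program and the annotation release, no entry was found: not given in the sources used here. A table of gene IDs gave the symbols and matched 19580 of 29291 genes. No sequence was used here, and genes with near-identical copies can share reads.

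Mapped reads were first set to the common divisor of the low values of each library. The smallest multiple or fraction of it with a near-best share of whole reads, at lengths from the other libraries, was then taken. Whole reads resulted for 86.7% (oblong-sphere) to 97.8% (Protruding-mouth) of the low genes checked. Gene lengths were the smallest whole length that gave whole reads in 8 libraries (relative tolerance 1e-09), found for 76.7% of the 19868 genes past 1 RPKM. Genes were named by these rules: the measured genes at every stage, the 5 most like each, the 5 with the largest 50%-epiboly excess, the family, neighbours of hspb1 in rank at 50%-epiboly, and list genes past 4-fold at either step around 50%-epiboly. The members and lists were chosen with earlier results of these data known. Alternatives were a pseudocount of 0.1, 3 other scalings, no filter, Spearman's rho and, added after seeing the data, wider list matching. The code was tested on simulated data. Python 3.11.15, numpy 2.4.6, pandas 2.3.3 and scipy 1.17.1 were used.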

Additional observations from a re-analysis of the deposited data

How the results depend on the processing

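With 1 library per stage no replicate could be left out. No paired analysis was possible because no stage has a second library. Of the 24 differences of hspb1, hspb6 and hspb8, all 24 kept their direction with a pseudocount of 0.1, 22 with median-of-ratios scaling, 22 with scaling without the 100 most abundant genes and 21 with scaling without mitochondrially encoded genes, and those that turned were not called. The difference of hspb1 into 50%-epiboly was 7.67, 7.99, 7.75 and 7.45 in that order, and out of it -4.49, -3.84 and -3.93 with the 3 scalings. With a pseudocount of 0.1 hspb6 had 0.50 and 0.63 at these steps and hspb8 2.04 and 3.97, and with median-of-ratios scaling hspb8 had 0.58 and 2.32. Sizes were less stable than directions. At steps that do not touch 50%-epiboly, 45 of 72 alternative values lay outside the counting interval of the main difference and 27 within it. Steps with Pec-fin have no interval and were counted as outside, and hspb8 intervals assumed the median gene length. The hspb1 difference to 1 week was -0.63, but -1.02, -1.16 and -1.14 with the 3 scalings. A pseudocount of 0.1 gives low genes more weight. Counts of genes higher and lower at 4-fold were then 314 and 550 to oblong-sphere, 2756 and 4741 to 50%-epiboly, 2608 and 442 to 15-somite and 989 and 307 to Prim-25, against 74 and 136, 1365 and 2928, 869 and 223, and 343 and 86. With median-of-ratios scaling 484 genes were lower at 15-somite. Leaving out the filter could not change the counts at a pseudocount of 1, since a call then needs more than 1 RPKM in a library, and it says nothing about stability. By Spearman's rho 2 of the 5 genes most like hspb1, 1 of those most like hspb6 and 0 of those most like hspb8 were among the first 5; the cause was not tested. Wider list matching added 1 higher Hsp90 gene and 1 lower Hsp40 gene into 50%-epiboly and 1 higher small heat shock gene out of it. Depth limits hspb6 at 64-cell and oblong-sphere, at 2 reads each. Values of hspb8 were similarly low in these libraries, 0.00952 and 0.00890 RPKM, and its reads were not recovered, so its ratios to them are uncertain too.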
